A study of Mus musculus with 4 samples.

Results

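A set of 9 genes of ketone body and branched-chain amino acid (BCAA) catabolism were followed in mouse heart. They are Slc16a1, Bdh1, Oxct1 and Acat1 of ketone uptake and use, and Bcat2, Bckdha, Bckdhb, Dbt and Ppm1k of BCAA breakdown. They were chosen by gene symbol for their place in these pathways, with earlier results of these data known. All 9 were found among the 23337 gene symbols of each library. The 4 libraries were of heart RNA from C57BL6/J mice, each pooled from 5 hearts of male and female animals. The controls, PIMTfl/fl, were 2 or 6 months old and carried loxP sites around exons 3 and 4 of the PIMT gene, Tgs1, without Cre. The csPIMT-/- mice, of the same 2 ages, carried the same floxed allele with Cre driven by the α-MyHC promoter, which acts in cardiomyocytes from late embryonic life, so other cells of the heart kept the gene. Every group was 1 pool and 1 library, and differences between groups could not be checked against replicates.

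The heart burns ketone bodies when the liver releases them. 3-hydroxybutyrate enters the cell through monocarboxylate transporter MCT1 (Slc16a1), is oxidized to acetoacetate by 3-hydroxybutyrate dehydrogenase (Bdh1), receives coenzyme A from succinyl-CoA through SCOT (Oxct1), and is split to acetyl-CoA by the mitochondrial thiolase (Acat1). Leucine, isoleucine and valine first lose their amino group to a transaminase, mitochondrial in muscle (Bcat2), and the keto acids are then committed by the branched-chain keto acid dehydrogenase (BCKDH) complex, whose E1 component is made of an α and a β chain (Bckdha, Bckdhb), whose E2 core is Dbt and whose E3 is Dld, shared with other dehydrogenases. The kinase Bckdk switches the complex off and the phosphatase Ppm1k switches it on, and the complex is known to be regulated in the failing heart.

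PIMT was isolated as a partner of a coactivator of nuclear receptors, many of which bind copies of the hexamer AGGTCA, so the bases upstream of the members are shown. RefSeq windows (GRCm38.p6) of 250 bases before a start site were found for 7 of the 9 genes, 10 windows in all, and none was found for Acat1 or Dbt. The hexamer, searched on both strands, was in 2 of the 10 windows (20.0%), 1 of Ppm1k and 1 of Bckdhb, against 14.0% of all 32851 windows. Those 2 windows are printed 5′ to 3′ with the hexamer in capitals, with those of Oxct1 and Bdh1, which differed most between the control ages among the ketone genes and hold no copy. The Ppm1k window lies at chr6:57535488-57535737 on the minus strand, the Bckdhb window at chr9:83924887-83925136, the Oxct1 window at chr15:4026178-4026427 and the Bdh1 window at chr16:31422047-31422296, all 3 on the plus strand.
Ppm1k: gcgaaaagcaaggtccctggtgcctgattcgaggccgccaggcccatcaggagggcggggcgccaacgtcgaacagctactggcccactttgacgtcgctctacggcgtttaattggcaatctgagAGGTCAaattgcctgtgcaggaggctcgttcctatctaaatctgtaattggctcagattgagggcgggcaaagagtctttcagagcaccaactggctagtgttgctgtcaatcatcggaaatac
Bckdhb: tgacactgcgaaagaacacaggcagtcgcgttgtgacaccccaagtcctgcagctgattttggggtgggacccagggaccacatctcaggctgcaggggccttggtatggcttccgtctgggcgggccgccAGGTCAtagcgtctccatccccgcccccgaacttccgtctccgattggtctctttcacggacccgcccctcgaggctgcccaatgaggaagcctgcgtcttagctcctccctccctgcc
Oxct1: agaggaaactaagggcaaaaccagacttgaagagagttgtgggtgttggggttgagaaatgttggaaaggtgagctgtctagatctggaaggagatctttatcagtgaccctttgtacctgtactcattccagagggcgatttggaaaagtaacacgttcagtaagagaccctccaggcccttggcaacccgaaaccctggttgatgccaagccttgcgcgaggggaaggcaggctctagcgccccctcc
Bdh1: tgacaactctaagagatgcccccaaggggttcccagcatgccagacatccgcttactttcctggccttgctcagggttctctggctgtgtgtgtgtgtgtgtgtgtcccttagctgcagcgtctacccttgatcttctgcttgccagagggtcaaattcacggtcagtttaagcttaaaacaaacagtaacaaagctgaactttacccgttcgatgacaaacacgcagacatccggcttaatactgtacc
The copy began 124 bases before the start site in Ppm1k and 119 bases before it in Bckdhb. A match of 6 letters is a description of the window and not a binding site.

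Between 29823073 and 40705783 reads were assigned to genes per library, with 17169 to 17349 genes having at least 1 read. Values are read counts divided by the library's size factor (normalized counts), in which 1 read was worth 0.865 to 1.23. Tgs1, the targeted gene, was at 580 and 816 normalized counts in the controls of 2 and 6 months and at 160 and 162 in csPIMT-/- hearts, a log2 difference of -2.09 (SE 0.334, limma with Benjamini-Hochberg adjustment, adjusted p = 0.011). All 10 cardiomyocyte markers were read in all 4 libraries. The libraries were not alike in other tissues. The control of 2 months stood apart from the other 3 by its low atrial and white fat markers, with summed normalized counts over 5 atrial genes of 40742 against 121253 to 349424 (2560 against 29128 to 132951 without Nppa, which failing ventricles express too), and over 5 white fat genes of 10.4 against 2136 to 12521. In this library the atrial gene Bmp10 and the fat gene Adipoq were both at 5.19 normalized counts. White fat markers were highest in the csPIMT-/- library of 2 months, which also held the most lung epithelium RNA (1286 against 23.4 to 46.8 over 5 genes). Xist (805, 25639, 6369 and 12856 normalized counts in controls of 2 and 6 months and csPIMT-/- of 2 and 6 months) and the Y-linked Uty (2254, 300, 87.5 and 171) also differed widely, while the share of each sex in a pool is not given in the sources used here. Of 6 macrophage markers read, 5 rose in csPIMT-/- hearts in limma, and Emr1 did not pass and was lower at 6 months (ratio 0.723). Their sums were 10831 and 26606 normalized counts in controls of 2 and 6 months and 35842 and 48820 in csPIMT-/- hearts, and fibroblast sums were 258525, 134024, 184173 and 187323 in the same order. Sums over 5 genes each ranged from 46962 to 76807 for endothelial, 120 to 460 for skeletal muscle and 2047 to 9249 for liver markers. Of the erythroid markers, 4 globin genes were listed at 0. The erythroid gene Alas2 was at 3832 and 2855 normalized counts in controls of 2 and 6 months and at 2313 and 12283 in csPIMT-/- hearts. The part of these differences in the results was not tested.

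Across the genotypes, the members fell into a group that was higher in csPIMT-/- hearts at both ages (Bdh1, Bcat2 and Bckdha), a group that was lower at both (Slc16a1, Oxct1, Acat1, Dbt and Ppm1k), and Bckdhb, which was higher at 2 months and lower at 6. In a limma fit of all 4 libraries with genotype and age, 3 members rose in csPIMT-/- hearts (Bdh1, Bcat2, Bckdha) and 2 fell (Acat1, Dbt), adjusted after Benjamini and Hochberg over 14935 genes. Over all genes tested, 12.4% rose and 18.8% fell. For each member but Bckdhb, both csPIMT-/- libraries lay on the same side of both controls. The share of all genes that do so was not counted, so it is not known whether this sets the members apart. A difference in a pooled tissue can come from fewer cells of a type or from less RNA per cell, and these cannot be told apart.

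**Figure D1:**
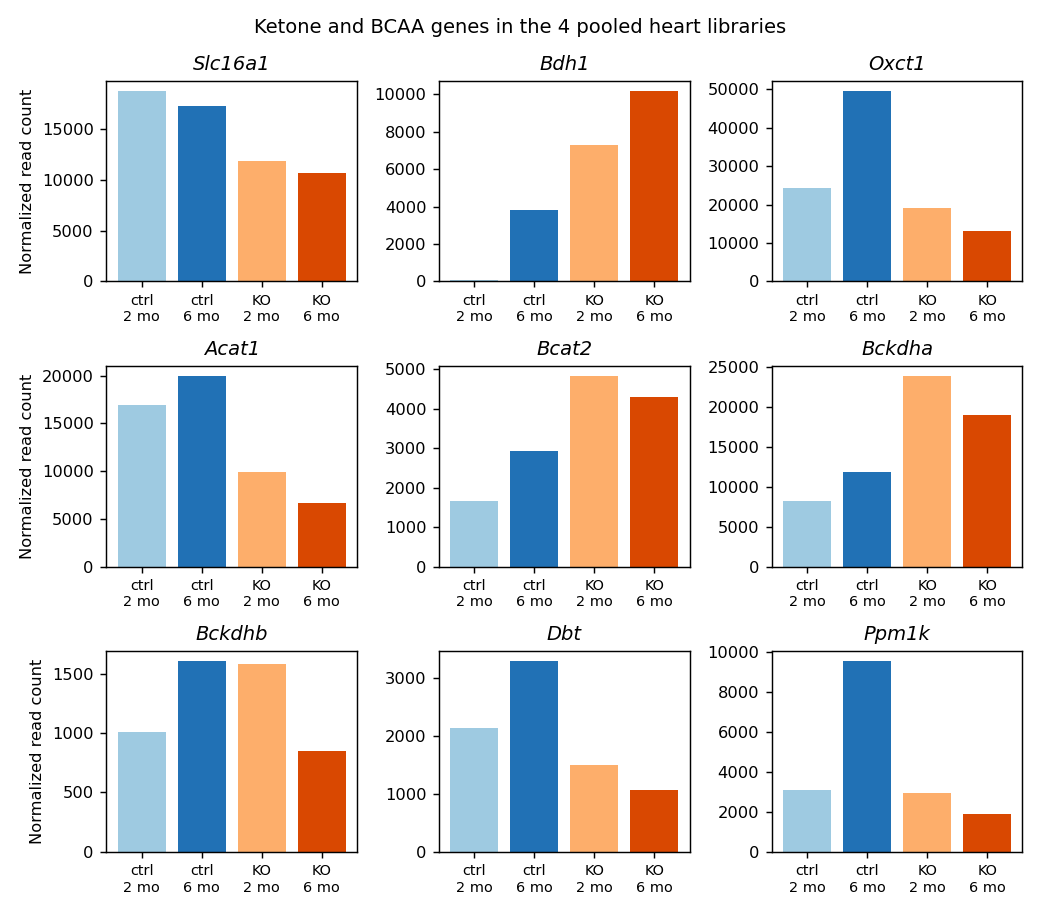
Normalized read counts of the 9 genes, 1 panel each with its own axis from 0, in the control libraries of 2 and 6 months (ctrl, PIMTfl/fl) and the csPIMT-/- libraries of 2 and 6 months (KO). Each bar is 1 library of 5 pooled hearts without replicate; Slc16a1 and Acat1 are lower in both csPIMT-/- libraries than in both controls, Bcat2 and Bckdha are higher, and Bdh1 is close to 0 only in the control of 2 months.

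Among the 9 members, the ketone transporter Slc16a1 had the steadiest levels. The other transporters of the ketone list were less steady. Their csPIMT-/- over control ratios at 2 and 6 months were 2.27 and 6.13 (Slc16a3), 0.947 and 0.247 (Slc16a7), and 0.612 and 0.913 (Slc16a6). Slc16a1 (chr3:104638668-104658462, plus strand; all gene positions are of GRCm38 in GENCODE M21) was at 18834 and 17275 normalized counts in the controls of 2 and 6 months, and at 11927 and 10687 in csPIMT-/- hearts. Both csPIMT-/- libraries were below both controls. Dividing csPIMT-/- by its age-matched control gave a ratio of 0.621 at 2 months (95% Clopper-Pearson interval of the counts 0.606 to 0.636) and 0.603 at 6 months (0.588 to 0.617), and the intervals, which hold counting noise alone, overlap. The limma log2 difference of -0.68 (SE 0.221) did not pass the threshold (Benjamini-Hochberg adjusted p = 0.061), and passed narrowly without a term for age (0.049). Once the trend of the ratios with GC content was subtracted the ratios of Slc16a1 turned to 1.25 and 1.40.

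Bdh1, the dehydrogenase that turns 3-hydroxybutyrate into acetoacetate (chr16:31422280-31458901, plus strand), rose in csPIMT-/- hearts and had the widest range of the 9 genes. It was at 83.1 normalized counts (96 reads) in the control of 2 months and at 3834 (4359 reads) in the control of 6 months, against 7287 and 10209 in csPIMT-/- hearts of 2 and 6 months. Only the control of 2 months was low, and that is the library whose atrial and fat markers were low too. The control of 6 months was thus 44.1-fold above the control of 2 months, more than the 2.59-fold difference between genotypes at 6 months (2.50 to 2.69), and the ratio at 2 months was 86.0 (70.3 to 106). With the control of 6 months in the place of the control of 2 months, the 2-month ratio was 1.84. The limma log2 difference was 3.92 (SE 1.05, Benjamini-Hochberg adjusted p = 0.037), and the call was lost under median-of-ratios scaling (adjusted p = 0.057), in edgeR (0.094), in DESeq2 (0.064) and without a term for age (0.11).

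Oxct1, or SCOT, which commits ketone bodies to oxidation in tissues outside the liver (chr15:4026383-4155344, plus strand), was at 24350 and 49614 normalized counts in controls of 2 and 6 months and at 18980 and 13114 in csPIMT-/- hearts. Both csPIMT-/- libraries were below both controls, and the control of 6 months was the highest of the 4. The ratio was 0.764 at 2 months (0.749 to 0.779) and 0.257 at 6 months (0.253 to 0.263). In limma the log2 difference was -1.15 (SE 0.403) and was not called (Benjamini-Hochberg adjusted p = 0.075). DESeq2 called it (adjusted p = 0.011) and edgeR did not (0.10). Without the control library of 2 months and without a term for age it passed (-1.66, adjusted p = 0.049), but the control of that fit is the 6-month library alone, the highest of the 4.

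Acat1, the thiolase that closes ketone use and also acts in isoleucine breakdown (chr9:53580522-53610382, minus strand), fell in csPIMT-/- hearts. Its normalized counts were 16912 and 19979 in the controls and 9916 and 6657 in csPIMT-/- hearts of 2 and 6 months, both below both controls. The ratios were 0.575 (0.560 to 0.590) and 0.325 (0.316 to 0.334), and the limma log2 difference was -1.18 (SE 0.278, Benjamini-Hochberg adjusted p = 0.026). Acat1 and Bckdha were the members that limma, edgeR and DESeq2 all called.

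Read per kilobase of the longest transcript, the balance along the ketone route differed between libraries. The level of Bdh1 was 0.00381 and 0.0862 of that of Oxct1 in the controls of 2 and 6 months, and 0.428 and 0.868 of it in csPIMT-/- hearts. The level of Oxct1 over Acat1 was 1.39 and 2.40 in the controls and 1.85 and 1.90 in csPIMT-/- hearts. The 2 csPIMT-/- libraries were thus highest for Bdh1 relative to Oxct1, while for Oxct1 relative to Acat1 they lay between the controls.

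In BCAA breakdown, the transaminase Bcat2 (chr7:45570153-45589711, plus strand) rose in csPIMT-/- hearts. It was at 1650 and 2938 normalized counts in controls of 2 and 6 months and at 4837 and 4299 in csPIMT-/- hearts, both above both controls. The ratio was 2.87 at 2 months (2.72 to 3.04) and 1.43 at 6 months (1.36 to 1.49). The limma log2 difference was 1.04 (SE 0.298, Benjamini-Hochberg adjusted p = 0.044), which was lost in edgeR (adjusted p = 0.060) and under median-of-ratios scaling (0.055). The brain-type transaminase Bcat1 was at 128 to 207 normalized counts in the 4 libraries.

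The E1 α chain, Bckdha (chr7:25629946-25658981, minus strand), also rose. It was at 8195 and 11824 normalized counts in the controls and at 23872 and 18901 in csPIMT-/- hearts of 2 and 6 months, both above both controls. The ratios were 2.86 (2.79 to 2.93) and 1.56 (1.52 to 1.59), and the limma log2 difference was 1.10 (SE 0.288, Benjamini-Hochberg adjusted p = 0.034). Of its 1899 exonic bases, 1171 are also exonic in B3gnt8 on the opposite strand, and the strand setting of the counting is not given in the sources used here. B3gnt8 was at 159 and 168 normalized counts in the controls and at 402 and 350 in csPIMT-/- hearts of 2 and 6 months. It was low beside Bckdha and likewise higher in csPIMT-/- hearts, and the effect of the overlap on the counts was not tested. Other members shared stretches with antisense genes: Bcat2 622 of 3900 bases (0610005C13Rik), Bdh1 533 of 3888 (Gm15743) and Oxct1 467 of 3701 (BC037032).

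Its partner, the E1 β chain Bckdhb (chr9:83925145-84124240, plus strand), was not called. Normalized counts of Bckdhb were 1004 and 1607 in the controls of 2 and 6 months and 1578 and 847 in csPIMT-/- hearts, so the genotypes overlapped. Its ratio was 1.54 at 2 months (1.42 to 1.67) and 0.513 at 6 months (0.472 to 0.558), and the log2 difference over both ages was -0.14 (SE 0.403, limma, Benjamini-Hochberg adjusted p = 0.81). Whether the effect differs between the ages cannot be tested with 1 library per group.

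Dbt, the E2 core (chr3:116513070-116549981, plus strand), fell in csPIMT-/- hearts. It was at 2134 and 3299 normalized counts in the controls and at 1498 and 1069 in csPIMT-/- hearts of 2 and 6 months, below both controls at both ages. The ratios were 0.688 (0.642 to 0.737) and 0.316 (0.294 to 0.338), with a limma log2 difference of -1.07 (SE 0.321, Benjamini-Hochberg adjusted p = 0.0496). The call sits at the threshold, was lost in edgeR (adjusted p = 0.066) and under median-of-ratios scaling (0.064), and turned to a log2 difference of 0.14 with the GC trend subtracted.

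The phosphatase Ppm1k (chr6:57506502-57535468, minus strand), which activates the complex, differed between genotypes mainly at 6 months before the GC trend was subtracted. It was at 3094 and 9566 normalized counts in the controls of 2 and 6 months and at 2947 and 1883 in csPIMT-/- hearts. The control of 6 months stood above the other 3 libraries. The ratio was 0.933 at 2 months (0.886 to 0.983) and 0.192 at 6 months (0.182 to 0.202). With the GC trend subtracted these ratios were 2.48 and 0.567. In limma Ppm1k was not called (log2 difference -1.21, SE 0.515, Benjamini-Hochberg adjusted p = 0.119), while DESeq2 called it (adjusted p = 0.024). It passed without the control of 2 months and without a term for age (-2.03, adjusted p = 0.035), a fit whose control is the high 6-month library alone.

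Of the other partners of the complex, Dld fell and Bckdk rose. Dld, the E3 subunit, fell from 9542 and 14006 normalized counts in the controls to 2013 and 2707 in csPIMT-/- hearts of 2 and 6 months (limma log2 difference -2.31, SE 0.209, Benjamini-Hochberg adjusted p = 0.0080). The kinase Bckdk rose from 3723 and 4773 to 8309 and 7870 (0.93, SE 0.228, adjusted p = 0.029). Per kilobase of transcript the level of Bckdha was 6.35 and 5.72 times that of Bckdhb in the controls of 2 and 6 months, and 11.8 and 17.4 times in csPIMT-/- hearts. Against Dbt the level of Bckdha was 6.68 and 6.23 times in the controls and 27.7 and 30.7 times in csPIMT-/- hearts. Against Dld it was 1.15 and 1.13 times in the controls and 15.9 and 9.35 times in csPIMT-/- hearts. As counted, Bckdha exceeded each of the others by more in both csPIMT-/- libraries than in the controls. The level of the kinase Bckdk over the phosphatase Ppm1k was 1.96 and 0.815 in the controls and 4.60 and 6.82 in csPIMT-/- hearts, so both csPIMT-/- libraries were above both controls. These genes differ in GC content, and with the GC trend subtracted the proportions differed less between genotypes. Bckdha over Dbt, which was 4.15-fold higher in csPIMT-/- hearts at 2 months and 4.93-fold at 6 months, was then 1.20-fold and 1.23-fold higher. Bckdha over Dld went from 13.8-fold and 8.27-fold to 3.49-fold and 1.84-fold, and Bckdha over Bckdhb from 1.85-fold and 3.03-fold to 1.19-fold and 2.00-fold. Bckdk over Ppm1k turned from 2.34-fold to 0.706 of the control at 2 months and went from 8.38-fold to 2.16-fold at 6 months.

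**Figure D2:**
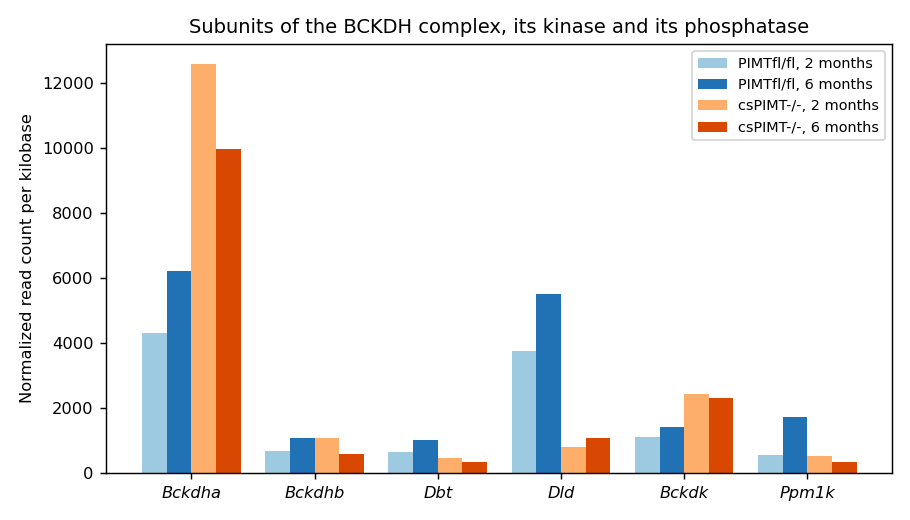
Normalized read counts per kilobase of the longest transcript (y axis, from 0) for the subunits of the BCKDH complex (Bckdha, Bckdhb, Dbt, Dld), its kinase Bckdk and its phosphatase Ppm1k, with 1 bar for each of the 4 libraries. In both csPIMT-/- libraries Bckdha and Bckdk are above the controls and Dld is below them, so the bars of one complex part in opposite directions.

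At each age taken alone, the members were compared by ratio with no test, counting those past 2-fold. At 2 months 3 of the 9 were more than 2-fold higher in csPIMT-/- hearts (Bdh1, Bcat2, Bckdha) and 0 were more than 2-fold lower, when 16.4% of 15152 genes were higher and 23.0% lower by that measure. At 6 months 1 was higher (Bdh1) and 4 were lower (Oxct1, Acat1, Dbt, Ppm1k), when 16.0% of 15218 genes were higher and 25.7% lower. The median ratio of the 9 was 0.934 at 2 months and 0.514 at 6 months, and over all genes compared it was 0.980 and 0.977. With the other age's control as the denominator, the medians of the members were 0.668 and 0.597, and 4 members were more than 2-fold lower and 0 higher at 2 months against 2 lower and 3 higher at 6 months.

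**Figure D3:**
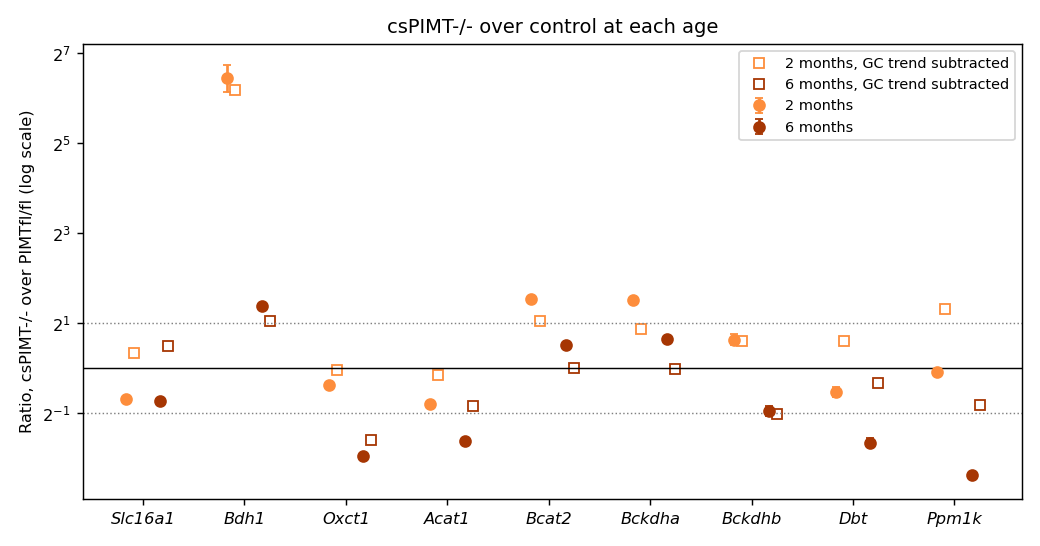
Ratio of csPIMT-/- over PIMTfl/fl (y axis, log scale) for each of the 9 genes at 2 months (light) and 6 months (dark). Filled points with bars are the ratios with their 95% counting intervals, mostly smaller than the point, open squares are the ratios with the GC trend subtracted, the solid line marks a ratio of 1 and dotted lines 2-fold; for every gene but Slc16a1 the 6-month point lies clearly below the 2-month point.

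All 9 members had a lower ratio at 6 months than at 2 months, although for Slc16a1 the counting intervals overlapped. The ratio at 6 months divided by that at 2 months had a median of 0.459 over the members, from 0.0303 for Bdh1, 0.205 for Ppm1k, 0.333 for Bckdhb and 0.337 for Oxct1 to 0.971 for Slc16a1. Over all 14781 genes compared at both ages the median was 0.973, 52.5% of genes had a value below 1, and 12.8% had a value below 0.5. With the GC trend subtracted 8 of 9 members were lower at 6 months (median 0.485), all but Slc16a1, when 50.6% of all genes were. With the control of 6 months as denominator at both ages, only the csPIMT-/- libraries differ. That amounts to the comparison of csPIMT-/- hearts of 6 and 2 months given below, in which 8 of 9 were lower, all but Bdh1. The pattern has 1 library behind each of its 4 values and no test.

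The same pattern split by genotype showed opposite differences with age. From 2 to 6 months, 8 of 9 members were higher in the controls, all but Slc16a1, with a median ratio of 1.53 against 1.01 over all genes. Of all genes compared in the controls, 49.3% were lower at 6 months. Just 2 members were more than 2-fold higher, Bdh1 at 44.1 and Ppm1k at 2.95, when 8.15% of genes were. In csPIMT-/- hearts 8 of 9 were lower at 6 than at 2 months, all but Bdh1, when 48.8% of all genes were. The median ratio was 0.694 against 1.01 over all genes. The lowest of the members was Bckdhb at 0.522 and none passed 2-fold, when 8.73% of genes were more than 2-fold lower. Oxct1 was 1.95-fold higher with age in the controls and at 0.672 of its 2-month level in csPIMT-/- hearts, and for Ppm1k these values were 2.95 and 0.621. The control ratios rest on the control library of 2 months that stood apart in atrial, fat and sex-linked genes, and its part in them was not tested. The csPIMT-/- ratios set a library of 2 months with more fat and lung RNA against one with less. Between them the brown fat gene Ucp1 was at 1766 and 12.5 normalized counts, the white fat sum at 12521 and 2136 and the lung sum at 1286 and 46.8. The brown fat sum, over 6 genes, was at 44942 and 31602 against 24668 and 24126 in the controls. It was mostly Cox7a1 and Cox8b, which were at 12330 and 10438 in the control of 2 months, where Ucp1 was at 8.65. The sum is therefore not a measure of brown fat. The part of fat and lung RNA in the lower levels at 6 months was not tested either.

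**Figure D4:**
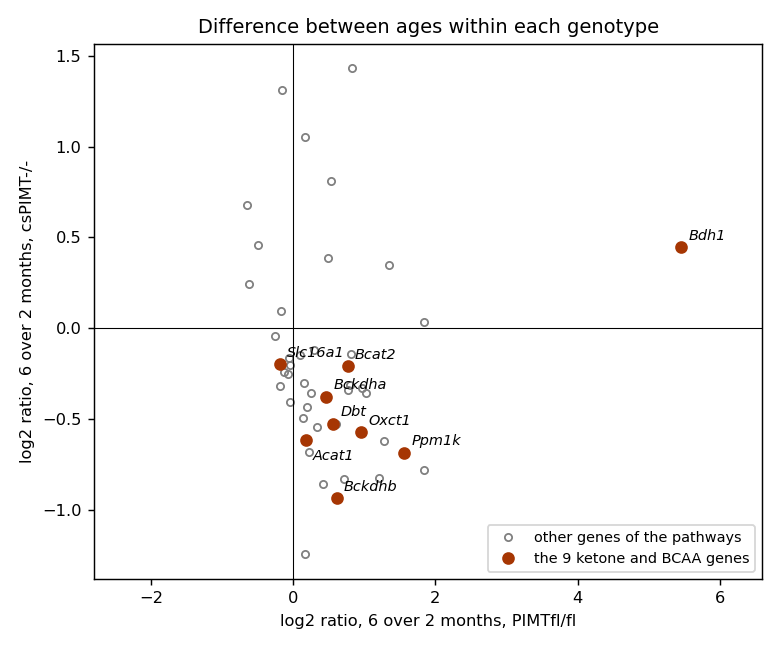
Difference with age within each genotype, as the log2 ratio of 6 over 2 months in PIMTfl/fl (x axis) and in csPIMT-/- hearts (y axis), for the 9 genes (filled) and other genes of the same pathways (open). Each point is a gene, and 7 of the 9 lie in the lower right part, with Bdh1 and Slc16a1 outside it. Genes there are higher with age in the controls and lower with age in csPIMT-/- hearts. The share of all genes in that part was not counted.

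The members also differed in the GC content of their transcripts. Bckdha (57.9%), Bcat2 (54.3%) and Bdh1 (52.1%), the 3 that rose, had the highest GC content, and Ppm1k (39.9%), Dbt (42.1%) and Slc16a1 (42.9%) the lowest. Across all genes the log2 ratio of csPIMT-/- over control was higher at higher GC content, and the Spearman rho over genes was 0.580 for the 2-month ratio (n = 14975 genes) and 0.607 for the 6-month ratio (n = 15039), where genes share their libraries and are not independent. After a smooth curve of that trend was subtracted from every library, limma called none of 14765 genes at an adjusted p below 0.05 (3850 at an unadjusted p below 0.05, smallest Benjamini-Hochberg adjusted p = 0.091), so none of the 5 member calls was kept. For the ratios, a separate curve was fitted to the log2 ratios of each age and subtracted. The ratios of Bdh1 were then 71.7 and 2.07 at 2 and 6 months. Those of Oxct1 were 0.963 and 0.330, of Acat1 0.898 and 0.552, and of Bckdhb 1.52 and 0.488. The ratios of Bcat2 and Bckdha became 2.05 and 1.80 at 2 months and 0.996 and 0.975 at 6 months. Those of Dbt became 1.51 and 0.795, and of Ppm1k 2.48 and 0.567. Their median over the 9 was 1.52 at 2 months and 0.795 at 6 months. The call of Tgs1, the targeted gene, was lost too (limma log2 difference -0.86, SE 0.288, Benjamini-Hochberg adjusted p = 0.16). Its ratios became 0.602 and 0.495 at 2 and 6 months. What sets the GC trend was not tested.

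**Figure D5:**
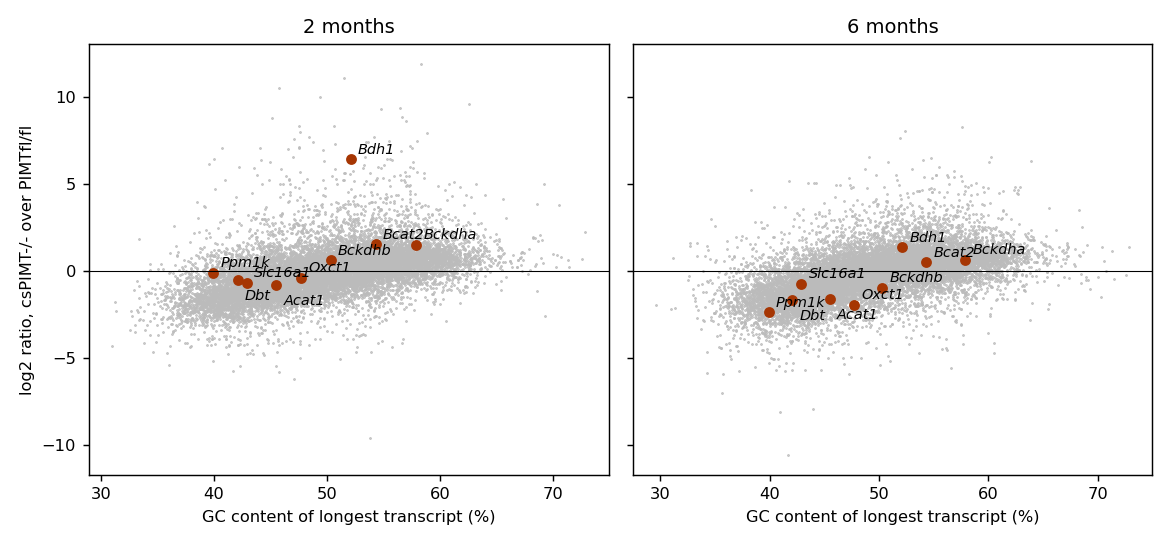
log2 ratio of csPIMT-/- over PIMTfl/fl (y axis) against the GC content of the longest transcript in percent (x axis), at 2 months (left) and 6 months (right). Grey points are all genes compared, labelled points the 9 members; the cloud rises with GC content (Spearman rho 0.580 and 0.607) and, Bdh1 at 2 months apart, the members lie within it.

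The other genes of these pathways, 41 in lists chosen with earlier results known, were read beside the members. Of 38 that entered limma, 4 fell (Dld, Hibch, Mut, Ppargc1a) and 8 rose (Slc16a3, Aacs, Slc7a5, Slc3a2, Slc43a2, Bckdk, Klf15, Esrra), against 18.8% and 12.4% of all genes. The 29 of 38 with a lower ratio at 6 than at 2 months included all 4 genes of the leucine branch, all 8 compared of the isoleucine and valine branches and all 6 from propionyl-CoA to succinyl-CoA, but 2 of 6 BCAA transport genes and 1 of 4 regulators. The median over the 38 of the ratio at 6 months divided by that at 2 months was 0.673. Over all genes it was 0.973, and 52.5% had a lower ratio at 6 months.

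Among the genes of ketone uptake and use beside the members, none of 7 fell and 2 rose (18.8% and 12.4% over all genes). Slc16a3, the lactate exporter MCT4, was at 227 and 214 normalized counts in the controls and at 525 and 1345 in csPIMT-/- hearts of 2 and 6 months (limma log2 difference 1.92, SE 0.410, Benjamini-Hochberg adjusted p = 0.021). Aacs, which activates acetoacetate for lipid synthesis in the cytosol, was at 391, 549, 1510 and 856 in the same order (1.29, adjusted p = 0.047). In csPIMT-/- hearts MCT4 was thus higher at both ages and MCT1 was lower, the latter only before the GC trend was subtracted.

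None of the 6 BCAA transport genes fell and 3 rose (18.8% and 12.4% over all genes). Slc7a5, the light chain of the leucine transporter LAT1, was at 350 and 259 normalized counts in controls and at 702 and 990 in csPIMT-/- hearts of 2 and 6 months (limma log2 difference 1.46, Benjamini-Hochberg adjusted p = 0.025). Its heavy chain Slc3a2 was at 2360, 1580, 3885 and 6404 in the same order (1.36, adjusted p = 0.028), and Slc43a2 was the third (0.88, adjusted p = 0.035). Slc7a8, LAT2, had ratios of 2.01 and 2.37 and did not pass (1.15, adjusted p = 0.056). Slc25a44, the mitochondrial carrier of BCAAs, did not either (0.72, adjusted p = 0.055).

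Below the BCKDH complex, 2 of 18 genes fell and none rose, when 18.8% of all genes fell and 12.4% rose. Hibch, which frees 3-hydroxyisobutyrate in valine breakdown, was at 1942 and 3564 normalized counts in the controls and at 634 and 590 in csPIMT-/- hearts (limma log2 difference -2.11, SE 0.310, Benjamini-Hochberg adjusted p = 0.0095). The call was lost without the control library of 6 months (log2 difference -1.67), a fit with 1 control library. Leaving out the control of 2 months ended the calls of Slc16a3, Bckdk and Ppargc1a, and not those of Dld and Hibch. Mut, the methylmalonyl-CoA mutase, was at 6444, 11081, 4549 and 2627 in controls and csPIMT-/- hearts of 2 and 6 months (-1.30, adjusted p = 0.0499). Of the 4 genes of the leucine branch none passed, and Ivd, its first dehydrogenase, had ratios of 2.66 and 1.06.

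Of 4 regulators 2 rose and 1 fell (12.4% and 18.8% over all genes). Klf15, a factor known to drive BCAA genes in heart, was at 1451 and 1702 normalized counts in controls and at 2435 and 5207 in csPIMT-/- hearts (limma log2 difference 1.17, Benjamini-Hochberg adjusted p = 0.025). Ppargc1a, the coactivator of mitochondrial genes, was at 6755 and 4585 in controls and at 1730 and 2104 in csPIMT-/- hearts (-1.55, SE 0.263, adjusted p = 0.012). Esrra, the estrogen-related receptor α, rose by 0.75 on the log2 scale (adjusted p = 0.042), and Ppara was not called (-0.66, adjusted p = 0.060). All 12 calls of these lists were lost, like those of the members, with the GC trend subtracted.

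The 5 member calls were also fitted with each library left out in turn, without a term for age. Without the control of 2 months none of the 5 passed, with Benjamini-Hochberg adjusted p-values in limma from 0.063 (Dbt) to 0.21 (Bcat2), and without the control of 6 months Bdh1 alone did (0.0047, against 0.057 for Bcat2 to 0.21 for Dbt). Acat1 and Dbt passed without the csPIMT-/- library of 2 months (0.016 and 0.030), and Acat1 and Bckdha without that of 6 months (0.047 and 0.028). The directions of the 5 did not change in these fits. With a prior variance that does not follow the mean, limma called none of the 14935 genes (5944 at an unadjusted p below 0.05, smallest adjusted p = 0.062).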

How the data were processed

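RNA of 5 pooled hearts per group gave 4 directional libraries, sequenced as single reads. The authors trimmed the reads, removed ribosomal RNA reads, aligned to mm10 with STAR, counted per gene of a UCSC annotation with htseq-count (HTSeq 0.6.1p1 in the submitters' processing notes) and used DESeq2. Versions of the other tools and the sequencing batches are not given in the sources used here. The deposited values (a signal) are counts divided by a size factor, also where the 6-month csPIMT-/- column is headed as read counts. Division by the smallest value above 0 in a library turned 100% of its values into whole reads (largest deviation 4.9e-09 reads), 29823073 to 40705783 per library.

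The main fit was limma 3.58.1 on log2 of TMM-scaled reads plus 1, with age and genotype, a prior variance trend (prior df 5.04, 1 residual df) and Benjamini-Hochberg adjustment, over genes with at least 10 scaled reads in 2 libraries and 15 in all. Its p-values therefore rest on variance borrowed across genes, and age stands in for a replicate. A fit to raw counts had been planned, and edgeR 4.0.16 and DESeq2 1.42.0 on the recovered reads served as alternatives. Ratios at 1 age used median-of-ratios factors of the 2 libraries, at least 10 reads in 1 of them, and a 95% Clopper-Pearson interval that covers counting error only; genes past 2-fold were counted. GC trends were lowess curves (span 0.3). Members and lists were chosen with earlier results of these data known. Beside the members, all genes of 7 pathway lists were counted; named by rule were those past 2-fold the same way at both ages and Bckdk and Dld. 1 further pathway list is not reported here. Aacs, Slc16a6, Slc16a7, Slc7a5, Slc3a2, Slc43a2, Slc25a44, Bcat1, Ivd, Mut, Klf15, Esrra, Ppara and the sex-linked genes were named after their values were seen. Alternatives were other scalings, pseudocounts, filters, controls, the GC trend and each library left out; the alternatives on the ratio at 6 over that at 2 months, on proportions between genes and on the atrial sum were chosen after seeing the data.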

Additional observations from a re-analysis of the deposited data

Results flagged for a closer look

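Bckdhb was singled out because its ratios of csPIMT-/- over control lay on opposite sides of 1 at the 2 ages. Bckdhb had a ratio of 1.54 at 2 months and 0.513 at 6 months. With 1 library per group the difference between the ages was not tested. The same opposition was found with the GC trend subtracted (1.52 and 0.488) and not with the other age's control (0.950 and 0.827). With the GC trend subtracted it was not particular to Bckdhb. Dbt (1.51 and 0.795), Ppm1k (2.48 and 0.567), Bcat2 (2.05 and 0.996) and Bckdha (1.80 and 0.975) then showed it too. As measured, 0 of 4 leucine branch genes had a ratio below 1 at 2 months and 3 at 6 months. The share of all genes with such opposition was not counted.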

How the results depend on the processing

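No paired analysis was possible because each group held 1 library and no replicate numbers pair the groups. Over all genes, limma called 2801 lower and 1858 higher in csPIMT-/- hearts. With the GC trend subtracted or with no trend in the prior variance it called 0 and 0. Without 1 library the counts ranged from 98 to 2524 lower and from 162 to 1595 higher: without the control of 2 months 1089 and 181, without that of 6 months 98 and 162, and without the csPIMT-/- library of 6 months 2524 and 1130. edgeR called 2508 lower and 1619 higher, DESeq2 2994 and 2201. With the GC trend subtracted the limma log2 differences of Slc16a1 (0.41, adjusted p = 0.26), Dbt (0.14, 0.79) and Ppm1k (0.25, 0.80) changed sign. Bckdhb, which was not called, turned to 0.20 without the control of 6 months and 0.31 without the csPIMT-/- library of 6 months, its values without 1 library ranging from -0.58 to 0.31.

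For ratios at 1 age, members more than 2-fold lower at 2 months numbered 0, with the other control 4 and with both controls summed 2; members more than 2-fold higher numbered 3 and with the other control 0. At 6 months the members lower numbered 4, with the other control or the GC trend subtracted 2, and those higher 1, with the other control 3. Over all genes the lower counts were 3492 and 3917 at 2 and 6 months and 1723 and 1984 with the GC trend subtracted, and the higher count at 2 months, 2487, was 1618 with at least 100 reads. The ratio of Ppargc1a at 6 months turned to 1.17 with the GC trend subtracted. The cause was not tested in any of these. Median-of-ratios scaling ended the calls of Bdh1 (adjusted p = 0.057), Bcat2 (0.055) and Dbt (0.064); the other pseudocounts and filters ended no member's call. The proportion of Bckdk to Ppm1k at 2 months turned from 2.34 to 0.706 times that of the control with the GC trend subtracted.

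The limits are those of 1 pool per group. Counting intervals are narrow and say nothing of mice or pools, and Bdh1 in the control of 2 months, with 96 reads, is the least precise.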
